A study of Rattus norvegicus with 8 samples.

Results

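The expression of 10 immediate early genes was examined in the right stellate ganglion, the sympathetic ganglion that sends much of the innervation of the heart, of 8 rats, 4 of the Wistar strain and 4 of the spontaneously hypertensive strain (SHR). The genes were Fos (NM_022197), Fosb (NM_001256509), Jun (NM_021835), Junb (NM_021836), Jund (NM_138875), Egr1 (NM_012551), Egr2 (NM_053633), Arc (NM_019361), Nr4a1 (NM_024388) and Atf3 (NM_012912). They were chosen by name as well-known immediate early genes, and their 10 RefSeq records were taken from the 18314 records quantified in every rat. All rats were male and 16 weeks old by the labels and the methods of the study, none is labelled as treated, and each rat gave 1 library. SHR is an inbred strain selected for high blood pressure, and by that age its hypertension is established. The Wistar rats are the normotensive comparison group and come from outbred stock, so the contrast holds every genetic difference between the strains as well as the difference in blood pressure. RNA came from whole ganglia, in which fewer cells of a type and less RNA per cell cannot be told apart. By the methods of the study, the rats were anaesthetised with isoflurane and killed by pentobarbital overdose and exsanguination. The ganglia were then put in saline free of calcium and magnesium, and were cleaned and stripped of their sheath before lysis. What this handling contributed to the levels was not tested.

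Immediate early genes are transcribed within minutes of a stimulus, without the need for new protein synthesis, and their transcripts decay quickly. In sympathetic neurons they are switched on by depolarisation, calcium entry and trophic factors, through kinases that act on CREB and on serum response factor at promoters that are already accessible. Most of their products are transcription factors, so that a brief signal can be turned into a longer change in gene expression.

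The total estimated counts ranged from 25820299 to 35509074 per rat, and 13659 records passed the filter on low counts, all 10 immediate early genes among them. Of 57 listed cell type markers 56 were found, and each of these had at least 10 counts in at least 1 rat. The 9 markers of sympathetic neurons that were found summed to between 41150 and 47900 TPM (the share of all transcripts, scaled by transcript length) in every rat, against 867.6 to 1663 TPM for 8 satellite glia markers and 1669 to 2276 TPM for 6 Schwann cell markers, so the label of a sympathetic ganglion held. Wistar replicate 1 and SHR replicate 1 stood apart from the other rats, with summed adipocyte markers of 57.4 and 134.2 TPM against 5.71 to 21.96 TPM in the other 6 rats. In Wistar replicate 1 most of the sum was Fabp4, at 50.89 TPM. Its Plin1, at 0.470 TPM, was above every rat but SHR replicate 1, whereas its Adipoq, at 5.92 TPM, was near the 4.76 TPM of Wistar replicate 3. Without Wistar replicate 1 and SHR replicate 1, 1068 records (7.79%) passed the threshold instead of 389. For this reason the difference of each immediate early gene that changed direction without them is given in both ways.

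None of the 10 immediate early genes passed the threshold between the strains (edgeR quasi-likelihood test, Benjamini-Hochberg adjusted p under 0.05 over all records tested), whereas 2.85% of all tested records did. Egr1, which encodes a zinc finger transcription factor, had the largest estimate at 3.05-fold higher in SHR, with a 95% interval from 1.43 to 6.51. It was the 1 gene of the 10 with an unadjusted p under 0.05, against 16.8% of all tested records, and DESeq2 called 0 of the 10, against 4.42% of the 17711 records to which it gave a p. The mean was higher in SHR for 7 of the 10 genes, and the median log2 fold change was 0.44 over the 10 genes and 0.01 over all tested records. The median absolute log2 fold change was 0.49 against 0.21 for all tested records. The differences between rats of the same strain were also wide.

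**Figure D1:**
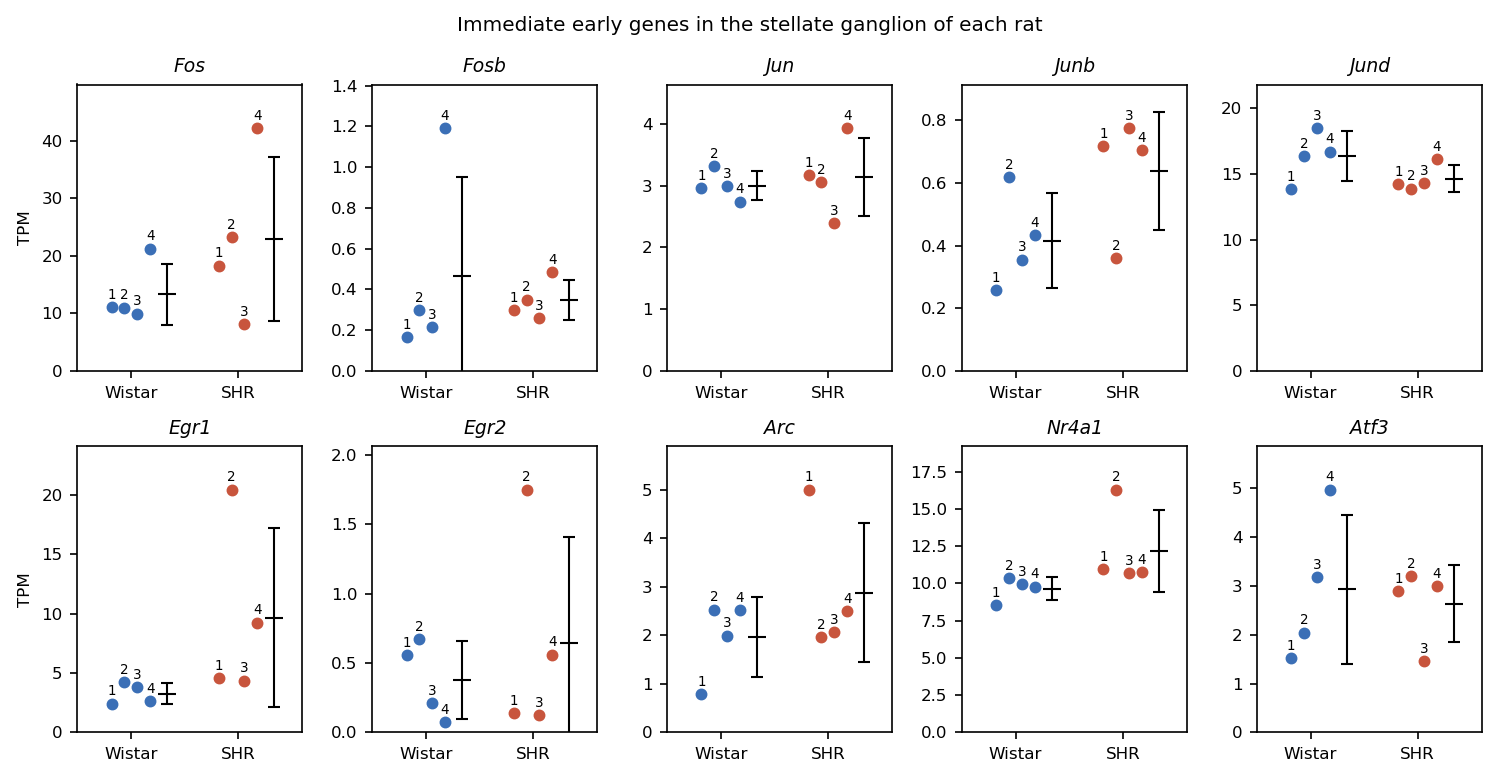
TPM (vertical axis, starting at 0 and scaled for each gene) of the 10 immediate early genes in each Wistar (blue) and SHR (red) rat, numbered by replicate. The bar beside each group is the mean ± SD of 4 rats, and its lower end is cut off at 0 where the SD exceeds the mean. The groups are separated for Egr1 and Nr4a1 and overlap for the other genes, and SHR replicate 2 stands highest for Egr1, Egr2 and Nr4a1.

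The AP-1 transcription factors include dimers of a Fos and a Jun protein. Fos, the founding member of the Fos family, was at 11.03, 10.98, 9.98 and 21.25 TPM in Wistar replicates 1 to 4 and at 18.28, 23.27, 8.16 and 42.18 TPM in SHR replicates 1 to 4. Wistar replicates 1 to 3 lay close together, the highest level was in SHR replicate 4 and the lowest in SHR replicate 3, so that the SHR rats enclosed the whole Wistar range. The mean was 13.3 ± 5.32 TPM (SD, n = 4) in Wistar and 23.0 ± 14.3 TPM (SD, n = 4) in SHR. The log2 fold change from the counts was 0.80 with a standard error of 0.45, and the adjusted p was 0.3976 (edgeR quasi-likelihood test). Without SHR replicate 4 the estimate was 0.36, whereas it was 1.09 without SHR replicate 3 and 1.14 without Wistar replicate 4.

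Fosb, whose truncated splice form is known to build up in neurons under repeated stimulation, was measured by a single record at a low level. It was at 0.166, 0.297, 0.214 and 1.19 TPM in the Wistar rats and at 0.298, 0.349, 0.259 and 0.486 TPM in the SHR rats, on 16 to 112 counts per rat. Wistar replicate 4 was far above the other rats, and the other Wistar rats, at up to 0.297 TPM, overlapped the lower SHR rats. From the counts the log2 fold change was -0.43 with a standard error of 0.61, and the adjusted p was 0.7612 (edgeR quasi-likelihood test). The sign rested on Wistar replicate 4, without which the log2 fold change was 0.64.

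Jun, the Jun family member that is induced after axon injury as well as by activity, was among the steadiest of the genes. Its level was 2.96, 3.32, 2.99 and 2.74 TPM in Wistar and 3.17, 3.06, 2.40 and 3.93 TPM in SHR. The SHR rats lay on both sides of the Wistar range, and the highest rat exceeded the lowest by 1.64-fold. The estimate from the counts was a log2 fold change of 0.05 with a 95% interval from -0.38 to 0.47, and without SHR replicate 4 it was -0.06. Junb, which often opposes Jun at shared target genes, was at 0.258, 0.618, 0.355 and 0.434 TPM in Wistar and at 0.716, 0.360, 0.775 and 0.704 TPM in SHR. SHR replicates 1, 3 and 4 were above every Wistar rat and SHR replicate 2 lay within the Wistar range. With 10 to 26 counts per rat, the log2 fold change of 0.55 had a 95% interval from -0.35 to 1.45, which includes both directions.

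Jund differs from its relatives in that its transcript is present at rest in most cells and responds little to stimulation. Its record was at 13.84, 16.33, 18.47 and 16.69 TPM in Wistar and at 14.23, 13.88, 14.27 and 16.12 TPM in SHR. The strains overlapped, with Wistar replicate 1 the lowest rat and Wistar replicate 3 the highest. Salmon had split the reads of this gene between this record and a second one of the same length, NM_001286966, with 50.0% to 50.01% of their reads on the first, so the level of the gene is the sum of both records. That sum was 32.67 ± 3.81 TPM (SD, n = 4) in Wistar and 29.25 ± 2.025 TPM (SD, n = 4) in SHR. With counts summed to genes the log2 fold change was -0.22 with a standard error of 0.125, and the adjusted p was 0.392 (edgeR quasi-likelihood test).

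Atf3, a member of the ATF/CREB family that dimerises with Jun proteins and is a classical marker of injured peripheral neurons, was detected in every rat. It was at 1.525, 2.04, 3.18 and 4.975 TPM in Wistar and at 2.90, 3.21, 1.47 and 2.996 TPM in SHR. The highest rat was Wistar replicate 4 and the lowest SHR replicate 3, and the strains overlapped. The log2 fold change of -0.11 (standard error 0.39) turned to 0.29 without Wistar replicate 4 and to 0.12 without SHR replicate 3. None of the 6 genes of the AP-1 group therefore passed the threshold, and the adjusted p of their single records ranged from 0.3976 for Fos to 0.9295 for Jun (edgeR quasi-likelihood test). Some of the intervals were wide, such as 0.874- to 3.46-fold for Fos and 0.287- to 1.91-fold for Fosb, so a difference of that size was not excluded.

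Egr1 and Egr2 encode related zinc finger factors that bind the same GC-rich element, and Egr2 is in addition the factor that directs myelination in Schwann cells. Egr1 was at 2.425, 4.21, 3.79 and 2.65 TPM in the Wistar rats and at 4.545, 20.45, 4.37 and 9.25 TPM in the SHR rats. Every SHR rat was above every Wistar rat on this scale, but SHR replicates 1 and 3 exceeded the highest Wistar rat only slightly, and most of the difference in the mean came from SHR replicates 2 and 4. The mean was 3.27 ± 0.866 TPM (SD, n = 4) in Wistar and 9.65 ± 7.54 TPM (SD, n = 4) in SHR. An exact permutation test of log2(TPM + 0.1) gave p = 0.02857 (two-sided), the smallest value that 4 rats against 4 allow. Groups without overlap in TPM were found for 9.83% of all tested records, and for 2 of the 10 immediate early genes.

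The separation of Egr1 depended on the scale. In library-scaled counts (CPM, scaled between rats by TMM), which is the scale of the edgeR fit and does not use transcript length, Egr1 was at 3.19, 5.12, 4.62 and 3.36 in Wistar and at 5.97, 27.26, 4.99 and 11.64 in SHR. On that scale SHR replicate 3 fell below Wistar replicate 2, and the exact permutation test gave p = 0.05714. None of the 10 genes was free of overlap in CPM, against 10.6% of all tested records. The log2 fold change of Egr1 was 1.61 with a standard error of 0.49, an unadjusted p of 0.008294 and an adjusted p of 0.1311 (edgeR quasi-likelihood test). Without SHR replicate 2 it was 0.89 with an adjusted p of 0.1977, and over 21 alternative fits it stayed between 0.89 and 1.88 with adjusted p from 0.06758 to 0.2779.

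Egr2 was at 0.559, 0.670, 0.212 and 0.074 TPM in Wistar and at 0.139, 1.75, 0.122 and 0.562 TPM in SHR, on 6 to 110 counts per rat. Its levels spanned 23.7-fold over the 8 rats, the widest range of the 10 genes, with SHR replicate 2 at the top and Wistar replicate 4 at the bottom. The log2 fold change was 0.80 with a 95% interval from -1.21 to 2.81, and without SHR replicate 2 it was -0.46.

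Nr4a1 encodes an orphan nuclear receptor that is induced by cyclic AMP and calcium, and was the third most abundant of the 10 genes by record. It was at 8.52, 10.35, 9.94 and 9.78 TPM in Wistar and at 10.93, 16.28, 10.69 and 10.76 TPM in SHR. The SHR rats were all above the Wistar rats in TPM, by a narrow margin for 3 of them, and SHR replicate 2 stood apart from its own strain. The mean was 9.65 ± 0.790 TPM (SD, n = 4) in Wistar and 12.2 ± 2.74 TPM (SD, n = 4) in SHR (exact permutation test, two-sided p = 0.02857). In CPM, Nr4a1 was at 18.76 to 21.19 in Wistar and at 20.41 to 36.04 in SHR, so that the strains overlapped (exact permutation test, p = 0.1143). In the edgeR fit the log2 fold change was 0.34 with a standard error of 0.17 and an adjusted p of 0.3509 (edgeR quasi-likelihood test). The estimate was 0.13 without SHR replicate 2 and 0.44 without SHR replicate 3.

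Arc, which unlike the other genes encodes no transcription factor but a protein of the synapse that promotes the removal of AMPA receptors, was at 0.783, 2.53, 1.99 and 2.52 TPM in Wistar and at 5.0, 1.96, 2.06 and 2.50 TPM in SHR. Wistar replicate 1 was the lowest rat and SHR replicate 1 the highest, and the other 6 rats lay between 1.96 and 2.53 TPM. For Arc the log2 fold change was 0.57 with a standard error of 0.41 and an adjusted p of 0.5028 (edgeR quasi-likelihood test). Without Wistar replicate 1 and SHR replicate 1, the rats that stood apart in summed adipocyte markers, it was -0.14, so the direction of the estimate rested on these rats.

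**Figure D2:**
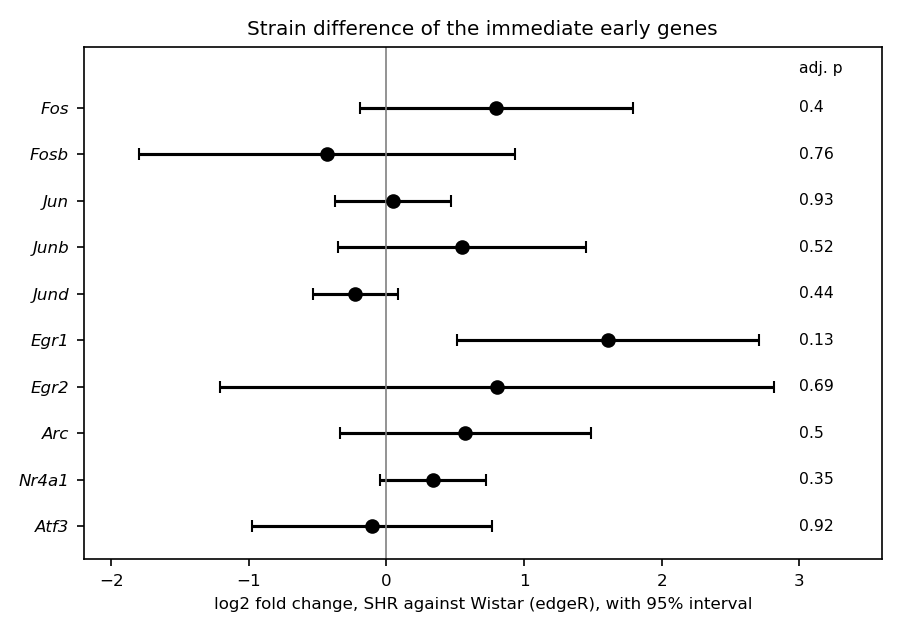
Log2 fold change of SHR against Wistar (horizontal axis) for each gene, with its 95% interval from the edgeR fit (n = 4 rats per strain) and the adjusted p at the right. The interval of Egr1, from 0.52 to 2.70, is the 1 interval that leaves out 0, and the adjusted p of every gene is above 0.05.

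The plot of fold changes shows how unequal the precision was. The interval was narrowest for Jund, from -0.53 to 0.08, and widest for Egr2, from -1.21 to 2.81, so a 2-fold change of Jund in either direction lay outside its interval and one of Egr2 did not. By mean TPM over the 8 rats the order of the records was Fos (18.1), Jund (15.5), Nr4a1 (10.9), Egr1 (6.46), Jun (3.07), Atf3 (2.79), Arc (2.42), Junb (0.527), Egr2 (0.511) and Fosb (0.408). With both records summed, Jund stood first. Among the neighbours in the order of records, the ranges over the 8 rats failed to overlap only between Arc and Junb, and there by a small margin, with the lowest Arc level at 0.783 TPM and the highest Junb level at 0.775 TPM.

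The promoters of the Egr genes and of Nr4a1 are given here because Egr1 had the 2 highest correlations between rats, with Nr4a1 and with Egr2. RefSeq promoters of the GRCr8 build were matched for 6 of the 10 genes, namely Fosb, Junb, Jund, Egr1, Egr2 and Nr4a1, and each was read over the 250 bases before the start site. The CArG box, the binding element of serum response factor, was present in 2 of the 6, against 1.5% of 33469 promoters in the table. Egr1 (chr18:26736828-26737077, plus strand) held the letters CCATATTAGG at bases -105 to -96 and CCATATATGG at bases -83 to -74, counted from the start site. Egr2 held CCATATATGG once, at the same bases -83 to -74. The core of the cyclic AMP response element, TGACG or its reverse complement CGTCA, was present in 5 of the 6 and in 18.2% of all promoters, and it was most frequent in Nr4a1 with 4 copies. Capitals mark the CArG box in Egr2 (chr20:21054442-21054691, minus strand) and the core of the cyclic AMP response element in Nr4a1 (chr7:134259888-134260137, plus strand), written 5′ to 3′ along the gene.
Egr2: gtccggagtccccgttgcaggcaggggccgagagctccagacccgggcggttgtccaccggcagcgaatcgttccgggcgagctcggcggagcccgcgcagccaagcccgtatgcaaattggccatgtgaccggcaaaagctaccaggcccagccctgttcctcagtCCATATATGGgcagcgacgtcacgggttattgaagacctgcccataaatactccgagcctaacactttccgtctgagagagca
Nr4a1: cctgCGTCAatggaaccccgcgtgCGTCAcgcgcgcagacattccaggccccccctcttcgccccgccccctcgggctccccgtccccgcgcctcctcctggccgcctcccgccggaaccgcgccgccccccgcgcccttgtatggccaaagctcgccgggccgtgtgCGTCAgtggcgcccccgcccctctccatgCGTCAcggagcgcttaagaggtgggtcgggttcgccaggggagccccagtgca

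The same search found the full cyclic AMP response element TGACGTCA in the promoter of Jund alone, against 1.59% of all promoters, where it overlaps 2 copies of the core. The AP-1 element, TGACTCA or TGAGTCA on either strand, was in 0 of the 6 and in 4.05% of all promoters. The EGR element, GCGTGGGCG or GCGGGGGCG on either strand, was in the promoters of Nr4a1 and Jund and in 2.85% of all promoters. The letters TATAAA, on either strand, were in the promoters of Fosb and Junb and in 12.9% of all promoters. Junb held TATAAA at bases -49 to -44, whereas Fosb held only the reverse complement TTTATA, at bases -180 to -175. A match describes the letters only, and binding was not measured.

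The spread between rats of the same strain differed widely among the genes. The biological coefficient of variation estimated by edgeR, which is the relative spread between rats beyond counting error, had a median of 0.4065 over the 10 genes and of 0.2125 over all tested records. It was highest for Egr2 at 0.851, which was exceeded by 199 of the 13659 records, and then for Fosb at 0.597, Egr1 at 0.4745, Fos at 0.436, Arc at 0.413 and Atf3 at 0.400. Fos and Nr4a1 belong to the same quintile of records by abundance, for which the median was 0.155, and Fos was well above it whereas Nr4a1, at 0.193, was nearer to it. Jund at 0.173 and Jun at 0.221 were below the medians of their abundance classes, 0.199 and 0.270. Junb at 0.345 was below its median of 0.427 as well, so that 7 of the 10 genes, and none of the 3 Jun family genes, lay above the median of records of like abundance. For Jund this holds for the single record with 50.0% of the reads of the gene. Its abundance class is therefore that of the record, and the summed gene was not placed in a class.

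**Figure D3:**
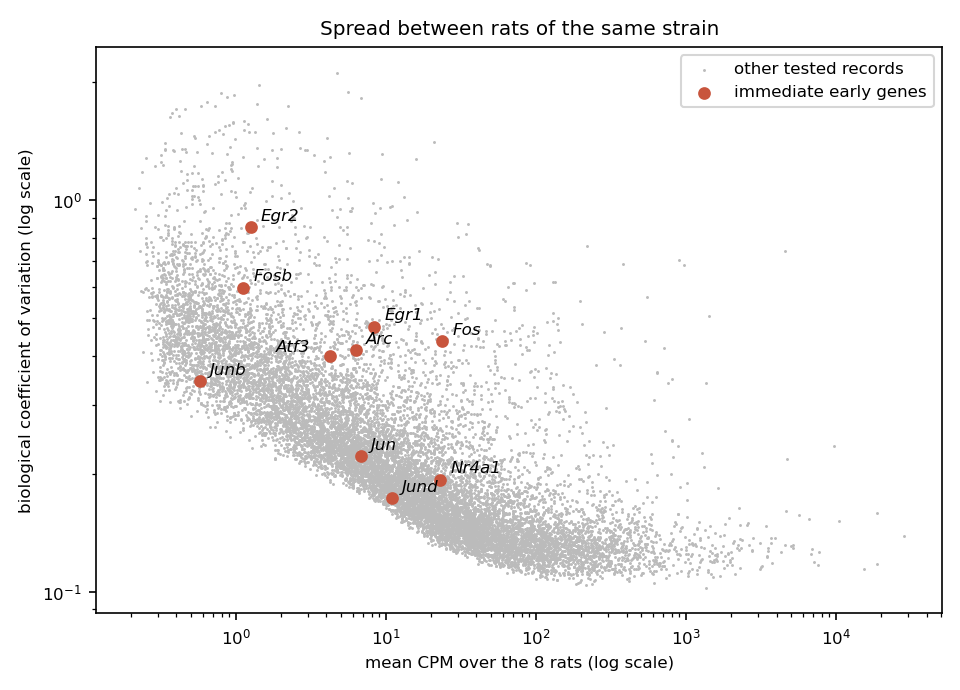
Biological coefficient of variation (vertical axis, log scale) against mean TMM-scaled CPM over the 8 rats (horizontal axis, log scale) for the 13659 tested records (grey) and the 10 immediate early genes (red). Egr1, Fos, Egr2 and Fosb lie above the bulk of records of like abundance, and Jun, Junb and Jund lie within its lower part.

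The rats that set this spread differed between the genes. After the mean of each strain was subtracted on the log2 CPM scale, SHR replicate 3 was the lowest SHR rat for 9 of the 10 genes, Junb being the exception, and reached -1.56 for Egr2 and -1.39 for Fos. In TPM, SHR replicate 2 was below SHR replicate 3 for Jund (13.88 against 14.27 TPM) and for Arc (1.961 against 2.065 TPM). On the log2 CPM scale Wistar replicate 1 was the lowest Wistar rat for 7 genes and the highest for 0. SHR replicate 2 was highest for 4 genes, with 2.23 for Egr2 and 1.46 for Egr1, and SHR replicate 4 was highest for 4 others, with 1.10 for Fos. Wistar replicate 4 combined the highest Fosb, at 1.76, with the lowest Egr2, at -1.64. A mean profile, in which each gene is divided by its SD before averaging, was -1.11 in SHR replicate 3, -0.67 in Wistar replicate 1 and between 0.02 and 0.50 in the other 6 rats.

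**Figure D4:**
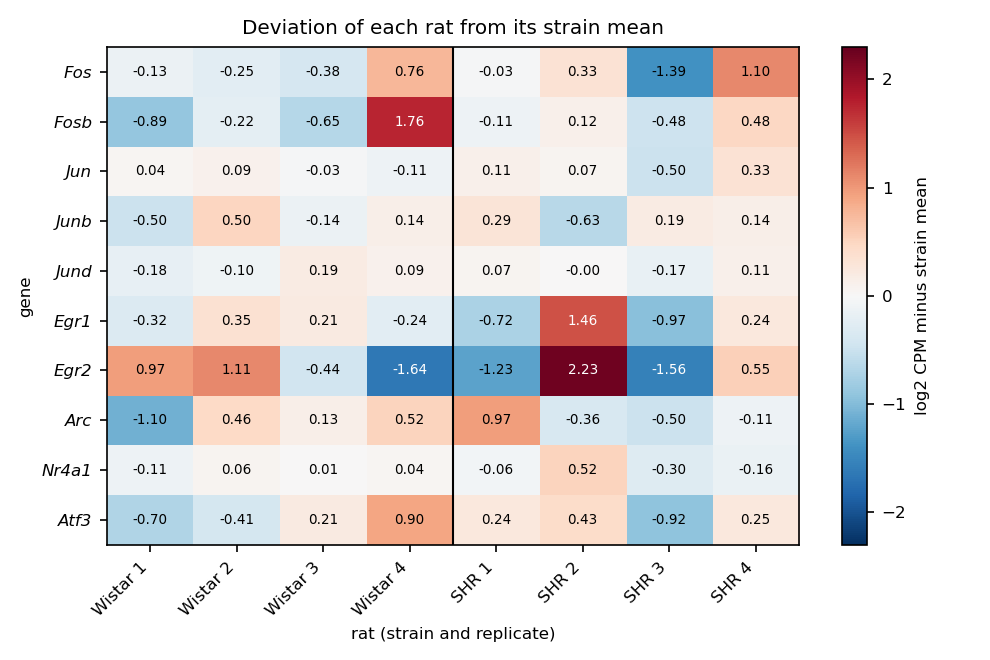
Deviation of each rat (columns, 4 Wistar and 4 SHR) from its strain mean in log2 CPM for each gene (rows), with the value printed in each cell. SHR replicate 3 is below its strain mean for every gene but Junb, whereas the high values fall in different rats for Fosb, Egr1 and Egr2, and Arc.

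SHR replicate 3 was also the lowest SHR rat in several sets of cell type markers. Its summed blood markers were 429 TPM against 2299 TPM in SHR replicate 4 and up to 8563 TPM in SHR replicate 1. Its summed smooth muscle markers were 16.9 TPM against 25.8 to 125.8 TPM in the other SHR rats, its macrophage markers 20.3 TPM against 29.7 to 94.0 TPM, and its fibroblast markers 671.9 TPM against 931 to 2223 TPM. The neuron markers in the same rat were 45840 TPM, within the range of the other rats. Its summed Schwann cell markers, at 2221 TPM, were the highest of the SHR rats, and its satellite glia, endothelium and adipocyte markers were not the lowest. Single markers within the low sets also differed. Tagln made up most of the smooth muscle sum, at 13.61 TPM, whereas Myh11, at 1.976 TPM, was the highest of the SHR rats. Col1a1, Col1a2, Vim, Cd68 and Cd163 were lowest in another SHR rat. The part of the other cell types in the low levels of the immediate early genes was not tested.

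Co-variation between the genes was measured by Pearson's r over the 8 rats on the same strain-centred scale, in 45 pairs. The median r was 0.29, and 34 of the 45 pairs were above 0. An r of at least 0.5 was found in 14 pairs, or 31.1%, against 16.4% of all pairs of tested records, whose median was -0.0005. All pairs share the same 8 libraries. Exact permutation of rats within strains gave p under 0.05 for 4 pairs, and 0 pairs passed after Benjamini-Hochberg adjustment over the 45 pairs, with a smallest adjusted p of 0.371. The median depended on SHR replicate 3, without which it was 0.05, and it was 0.47 without Wistar replicate 4.

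**Figure D5:**
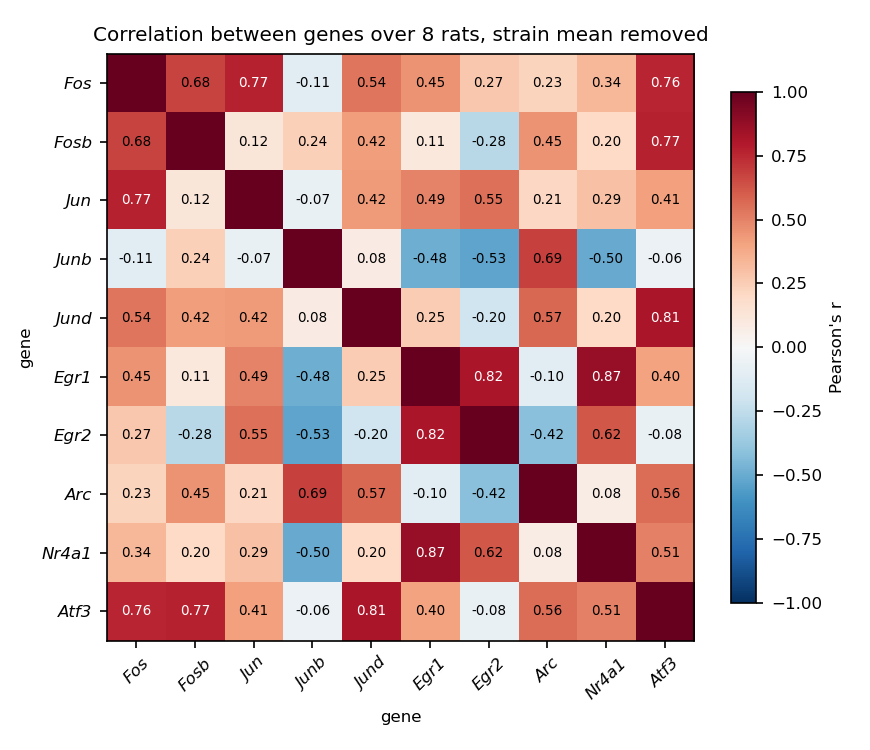
Pearson's r of each pair of immediate early genes over 8 rats after removal of the strain mean, from -1 (blue) to 1 (red). Egr1, Egr2 and Nr4a1 form a block of 0.62 to 0.87, Fos, Fosb and Atf3 one of 0.68 to 0.77, and Junb is below 0 with Egr1, Egr2 and Nr4a1.

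Egr1 formed the 2 pairs with the highest r, with Nr4a1 and with Egr2. Egr1 and Nr4a1 gave r = 0.87 (exact permutation p = 0.0608) and Spearman's rho = 0.71 (exact permutation p = 0.0851), and r was 0.63 without SHR replicates 2 and 4. Egr1 and Egr2 gave r = 0.82 (exact permutation p = 0.0295) and rho = 0.74 (exact permutation p = 0.0608), and r fell to 0.32 without the same rats, so this relation rested on them. The third pair of these genes, Egr2 and Nr4a1, gave r = 0.62 (exact permutation p = 0.181) and rho = 0.45 (exact permutation p = 0.297), and r was 0.09 without Wistar replicate 4 and SHR replicate 2, so it rested on these rats as well. Within the AP-1 group, Fos and Fosb gave r = 0.68 (exact permutation p = 0.00868) and rho = 0.81 (exact permutation p = 0.0191). Without SHR replicates 3 and 4, the rats farthest from the median of Fos, r was 0.92. The rats that remained included Wistar replicate 4, which was the highest Wistar rat for both genes. Fosb and Atf3 gave r = 0.77 (exact permutation p = 0.026) and rho = 0.86 (exact permutation p = 0.0191), and r was 0.52 without Wistar replicates 1 and 4. Jund and Atf3 gave r = 0.81 (exact permutation p = 0.033) and rho = 0.62 (exact permutation p = 0.149), and r was 0.865 without Wistar replicate 3 and SHR replicate 3. Fos and Jun gave r = 0.77 (exact permutation p = 0.132) and rho = 0.52 (exact permutation p = 0.247), but r was -0.74 without SHR replicates 3 and 4, so that relation rested on these rats. None of these values passed adjustment over the 45 pairs.

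By the median r, the AP-1 genes were less like the Egr genes than like each other. The median r was 0.42 over the 15 pairs of the AP-1 group and 0.18 over the 12 pairs of an AP-1 gene with Egr1 or Egr2, a description on shared libraries with no test. These medians were not taken again without SHR replicate 3. Single genes differed, and Jun had an r of 0.495 with Egr1 and 0.551 with Egr2, above its r with every AP-1 gene but Fos. The lowest r of all was that of Junb with Egr2, -0.53 (exact permutation p = 0.233; rho = -0.38). Against the mean of the 9 other genes, r was highest for Atf3 at 0.81 and Fos at 0.77 and lowest for Egr2 at 0.13 and Junb at -0.13.

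A list of 44 other immediate early genes was read in the same fit, of which 37 were tested. Fosl1, Egr3, Egr4, Npas4, Ptgs2, Socs3 and Cebpb did not pass the filter on low counts. For Cebpb this applied to its record with the most counts, whereas the gene had 16.1 to 35.0 counts per rat over its records. Summed in this way it was at 1.44 to 2.28 TPM in Wistar and at 1.84 to 3.09 TPM in SHR, and it was not tested. Of the 37, 2 were called higher in SHR and 0 lower, or 5.41% against 2.85% of all tested records. The mean was higher in SHR for 26 of the 37, and their median log2 fold change was 0.33. Klf6, a zinc finger factor of the Krüppel family, was at 45.71, 47.00, 46.73 and 41.57 TPM in Wistar and at 58.51, 68.87, 67.82 and 59.40 TPM in SHR. The strains were well separated, and the log2 fold change was 0.51 with a standard error of 0.10 and an adjusted p of 0.02166 (edgeR quasi-likelihood test). The call was lost without Wistar replicate 2, 3 or 4, with adjusted p of 0.06336, 0.06113 and 0.08356, and with the replicate number as a block, with an adjusted p of 0.1284 (edgeR quasi-likelihood test).

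Ccn1, a secreted matrix protein that is a target of serum response factor and YAP, was at 0.255, 0.545, 1.69 and 1.20 TPM in Wistar and at 12.04, 23.07, 1.65 and 5.93 TPM in SHR. SHR replicates 1, 2 and 4 were far above the Wistar rats and SHR replicate 3 lay within the Wistar range. For Ccn1 the log2 fold change was 3.59 with a standard error of 0.81 and an adjusted p of 0.04659 (edgeR quasi-likelihood test), and the call was lost on leaving out any 1 rat but SHR replicate 3. Ier2, a nuclear protein of the same early response, was at 0.173 to 0.374 TPM in Wistar and at 0.433 to 1.56 TPM in SHR, with a log2 fold change of 1.73 and an adjusted p of 0.1013 (edgeR quasi-likelihood test). The 3 most abundant listed genes were Klf6, Plk2 and Rheb. Plk2, a kinase of synaptic homeostasis, had a mean of 209.7 TPM and a log2 fold change of -0.10, and Rheb, the GTPase that activates mTORC1, a mean of 73.4 TPM and a log2 fold change of -0.77, and neither passed the test.

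An r of at least 0.5 with the mean profile of the 10 genes was found for 17 of the 37 other immediate early genes, or 45.9%, against 10.5% of all tested records other than the 10. They included the nuclear receptor Nr4a3, the MAP kinase phosphatase Dusp1, the growth regulator Btg2, Klf2, Klf4, Zfp36, Ier5, Ccn1 and Ccn2. The rest were Rgs2, Gadd45b, Rnd3, Mcl1, Crem, Cebpd, Csrnp1 and Nfil3. Of the 17, Gadd45b, Rnd3 and Mcl1 had a log2 fold change below 0. Plk2 and Klf10 ran opposite to the mean profile, with r of -0.739 and -0.605. The count of 17 depended on SHR replicate 3, without which it was 4 of 37 against 10.6% of all records. The 10 records most like the mean profile of the 10 genes over the 8 rats were Phtf2 (r = 0.99), Ddx25, Eya2, Plxdc1, Rd3l, Tac1, Iqsec2, Cox6b2, Uchl3 and Hs2st1 (r = 0.92), and the 5 least like it were Plg (r = -0.98), NM_001106013, Gp5, Ccdc62 and Gfra2 (r = -0.96). None of these is on the list of immediate early genes, and they were chosen for their r among 13649 records.

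The genes that lead to immediate early transcription were read from a second list, of which 52 were found and 49 tested. Of these 1 was called higher and 3 lower in SHR, or 8.16% against 2.85% of all tested records, and their median log2 fold change was -0.02. Elk3, a ternary complex factor that sits beside serum response factor at CArG boxes, was at 5.67 to 6.61 TPM in Wistar and at 1.67 to 2.14 TPM in SHR, without overlap (log2 fold change -1.725, adjusted p = 0.0001333, edgeR quasi-likelihood test). Camk2d, the delta chain of calcium/calmodulin-dependent kinase II, was at 16.67, 18.51, 32.76 and 25.69 TPM in Wistar and at 3.66, 3.43, 3.92 and 4.48 TPM in SHR (log2 fold change -2.58, adjusted p = 0.0001397, edgeR quasi-likelihood test). Crebbp, the acetyltransferase that CREB recruits, was higher in SHR, at 10.80 to 14.88 TPM against 7.37 to 8.54 TPM (log2 fold change 0.70, adjusted p = 0.002628, edgeR quasi-likelihood test). These 3 were called in all 21 alternative fits. Prkacb, a catalytic subunit of protein kinase A, had a log2 fold change of -0.51 and overlapped, with 142.9 to 183.3 TPM in Wistar and 97.4 to 145.1 TPM in SHR (adjusted p = 0.02926, edgeR quasi-likelihood test), and its call was lost in 10 of the 21 fits.

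The 3 most abundant of these regulators were Mapk3, Prkacb and Atf4. Mapk3, a kinase of the ERK pathway, had a log2 fold change of -0.06 and the stress-responsive factor Atf4 one of -0.11, and neither was called. Of 12 heat shock and handling genes found, 11 were tested and 0 were called, against 2.85% of all tested records, with 3 at an unadjusted p under 0.05, against 16.8% of all (edgeR quasi-likelihood test). DESeq2 called 2 of the 12, against 4.42% of all records. The mean was higher in SHR for 8 of the 11, the 3 with an unadjusted p under 0.05 among them, and the median log2 fold change was 0.077. The 3 most abundant handling and heat shock genes were Hspa8, Hsp90aa1 and Hspa5, with log2 fold changes of 0.01, 0.06 and -0.17. An r of at least 0.5 with the mean profile of the 10 immediate early genes was found for 1 of the 11, or 9.09%, and for 6 of the 49 regulators, or 12.2%.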

How the data were processed

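RNA of the right stellate ganglia of 4 Wistar rats and 4 SHR was analysed, with 1 library per rat and 25820299 to 35509074 counts per library. Per the labels, quality was checked with FastQC 0.11.7, and the authors quantified the reads with Salmon 0.8.2 against rat RefSeq transcripts of the rn6 build, with corrections for GC and positional bias. The labels name a stranded mRNA kit, whereas the methods describe an amplified low-input library, which can under-represent transcripts of low abundance. The deposited values of each record are an estimated count, not scaled between rats, and a TPM, both made by the authors' Salmon run. Estimated counts were rounded to whole numbers and compared with edgeR 4.0.16 in R 4.3.3 (glmQLFit defaults, TMM, filterByExpr by strain, threshold 0.05), over all tested records and without covariates. The replicate number was not used as a block in the main test. Single genes were also compared by exact permutation tests of log2(TPM + 0.1). Correlations were taken on log2 CPM (prior count 2) after the strain mean was removed, with 576 orders of the rats within strains, which cannot give a p below 0.00174. Alternatives were DESeq2 1.42.0, limma 3.58.1 on TPM with a pseudocount of 0.1 or 1, other scaling, filters and length offsets, gene sums, the replicate block, and leaving out rats. The fits were tested on simulated counts.

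The members, gene lists and tests were chosen with earlier results of these data known. Named were the 10 immediate early genes, the 10 records most like and the 5 least like their mean profile, and, of each list, the genes past the threshold and the 3 with the highest TPM. Beyond this rule Ier2, the genes that did not pass the filter and the listed genes like or opposed to the mean profile were named. Single cell type markers were named as well, and all of these were named after their values were seen. Symbols came from a RefSeq table of another build (GRCr8) and matched 17360 of 18314 records, so the only coordinates given are those of the RefSeq promoters, in GRCr8. Of a symbol with several records, the record with the highest mean count was read. Each rat is a separate animal, and counting error is only part of the spread between rats.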

Additional observations from a re-analysis of the deposited data

Results flagged for a closer look

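In each strain, the highest or lowest of the 4 rats was set against the range of its group for the 10 genes in TPM, which made 20 groups, and 3 of them held a rat far from the others. Chance flags about 1 in 20 groups. Fos was at 21.25 TPM in Wistar replicate 4, and the gap to the nearest Wistar rat was 0.907 of the range. Fosb was at 1.191 TPM in the same rat, with a gap of 0.872 of the range. Nr4a1 was at 16.28 TPM in SHR replicate 2, with a gap of 0.957 of the range. Wistar replicate 4 also had the highest Atf3 level of the 8 rats, and SHR replicate 2 the highest Egr1 and Egr2 levels.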

How the results depend on the processing

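The number of the 10 immediate early genes called was 0 in every alternative fit, with Egr2 not tested where at least 10 counts were required in every rat. Fos, Junb, Jund, Egr1 and Nr4a1 kept their direction in all 21 alternative fits. The log2 fold change reversed for Arc without Wistar replicate 1 and SHR replicate 1 together (-0.14). On leaving out 1 rat at a time it ran from -0.72 to 0.64 for Fosb (highest without Wistar replicate 4), from -0.32 to 0.29 for Atf3 (highest without Wistar replicate 4, and 0.12 without SHR replicate 3), from -0.46 (without SHR replicate 2) to 1.21 for Egr2, and from -0.0584 (without SHR replicate 4) to 0.19 for Jun.

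Over all records, 389 were called in the main fit, 782 with DESeq2, 851 with DESeq2 and a length offset, and 1068 without Wistar replicate 1 and SHR replicate 1 together (303 higher and 765 lower, against 158 and 231). Leaving out 1 rat at a time gave 237 to 454 calls, with the lowest counts without Wistar replicates 2, 3 or 4 or SHR replicate 4. With the replicate block 132 of 13659 records were called, 0 of 37 other immediate early genes and 3 of 49 regulators. The deviations of same-numbered rats had a mean correlation of -0.152 against 0.0505 for rats of different numbers. Both were taken after the strain means were removed, which ties these values together. They therefore cannot show whether the rats were handled in numbered pairs. On leaving out 1 rat, 0 to 2 of 38 to 39 other immediate early genes and 3 to 4 of 49 to 51 regulators were called. These stand against 237 to 454 of 13824 to 13972 records in the same fits. Without Wistar replicate 1 and SHR replicate 1 together 3 of 38 other immediate early genes (1 higher and 2 lower, against 2 and 0) and 8 of 49 regulators were called, against 7.79% of all records in that fit. Of the handling and heat shock genes, 0 to 1 of 11 were called on leaving out 1 rat, and 2 of 12 by DESeq2, against 4.42% of all records with DESeq2. The median correlation of the 45 pairs ran from 0.0544 to 0.468 on leaving out 1 rat, and the number of other immediate early genes with an r of at least 0.5 with the mean profile from 4 to 18, an alternative chosen after seeing the data. The cause of these changes was not tested. Junb, Egr2 and Fosb had the fewest counts.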
